A study of Homo sapiens with 24 samples.

Results

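The genes described here are 10 feedback inhibitors of mitogen-activated protein (MAP) kinase signalling: the dual-specificity phosphatases DUSP1, DUSP4, DUSP5, DUSP6, DUSP10 and DUSP16, the Sprouty genes SPRY1, SPRY2 and SPRY4, and the Sprouty-related gene SPRED1. They were taken by symbol from a table of 25541 genes and merged loci, and each of the 10 was found in 1 row under its own name. They were compared in T47D, a luminal breast cancer cell line, in 24 RNA-sequencing libraries that form 8 groups of 3 biological replicates. The line was used in 2 variants, T47D-Y, which the series describes as null for the progesterone receptor (PR), and T47D-co, described as positive for it. Cells were given 20 IU/ml interferon alpha (IFN) or water for 18 hours and then 10 nM R5020, a synthetic progestin that binds PR, or its vehicle ethanol (EtOH) for 6 hours. The groups are therefore T47D-Y and T47D-co, each with EtOH and water, R5020 and water, EtOH and IFN, and R5020 and IFN. Each receptor state is 1 variant of the line, so the presence of PR cannot be told apart from any other difference between the variants.

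Growth factor receptors signal through RAS, RAF and MEK to the kinase ERK, and stress signals reach the related kinases JNK and p38. The dual-specificity phosphatases remove phosphate from both the threonine and the tyrosine that activate these kinases, and Sprouty and SPRED proteins act further up, between receptor, RAS and RAF. Many of these inhibitors are transcribed in response to the pathway they restrain, so their transcripts are often read as a sign of pathway output in epithelial tumour cells, although hormone receptors and other signals also regulate several of them.

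Libraries held 14141236 to 33607384 estimated fragments, with a median of 18385727. The PR gene PGR was low but not absent in the 12 T47D-Y libraries, at 418 to 719 scaled fragments, and stood at 11807 to 27957 in the 12 T47D-co libraries. All 8 luminal epithelial markers were present, but their sum was 64440 to 69974 scaled fragments in the 6 T47D-co libraries with R5020 and 96218 to 100590 in the 6 with EtOH. In T47D-Y the sum was 106001 to 115370. Of the 4 basal markers 2 were found. KRT5 stood at 199 to 278 scaled fragments in T47D-co with R5020 and at most 3.77 elsewhere. TP63 was 6.14 to 15.6 in T47D-co with R5020, 21.0 to 48.1 in T47D-co with EtOH and highest in T47D-Y, at 163 to 237. Of 5 fibroblast markers only COL1A1 was found, at 154 to 233 scaled fragments in T47D-Y, 423 to 473 in T47D-co with EtOH and 285 to 375 in T47D-co with R5020. The endothelial, immune and adipocyte markers summed to at most 19.6, 77.3 and 65.1 scaled fragments. The mitochondrial share was 0.942 to 1.07% in 4 libraries, all given water (T47D-Y with EtOH replicate 1, T47D-Y with R5020 replicates 1 and 2, T47D-co with EtOH replicate 2), and 3.17 to 4.74% in the other 20. Values below are estimated fragments after 1 common scaling of all 24 libraries ("scaled fragments"), and they are not divided by transcript length, so levels are compared between groups and not between genes.

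All 10 genes were detected in all 24 libraries. The lowest value was 10.1 scaled fragments, for DUSP6, so all 10 passed the filter on low values (10 scaled fragments in 3 libraries). The plot of levels by group shows that the T47D-co libraries with R5020 stand apart for every gene except SPRY4, while the T47D-Y libraries with and without R5020 lie close together.

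**Figure D1:**
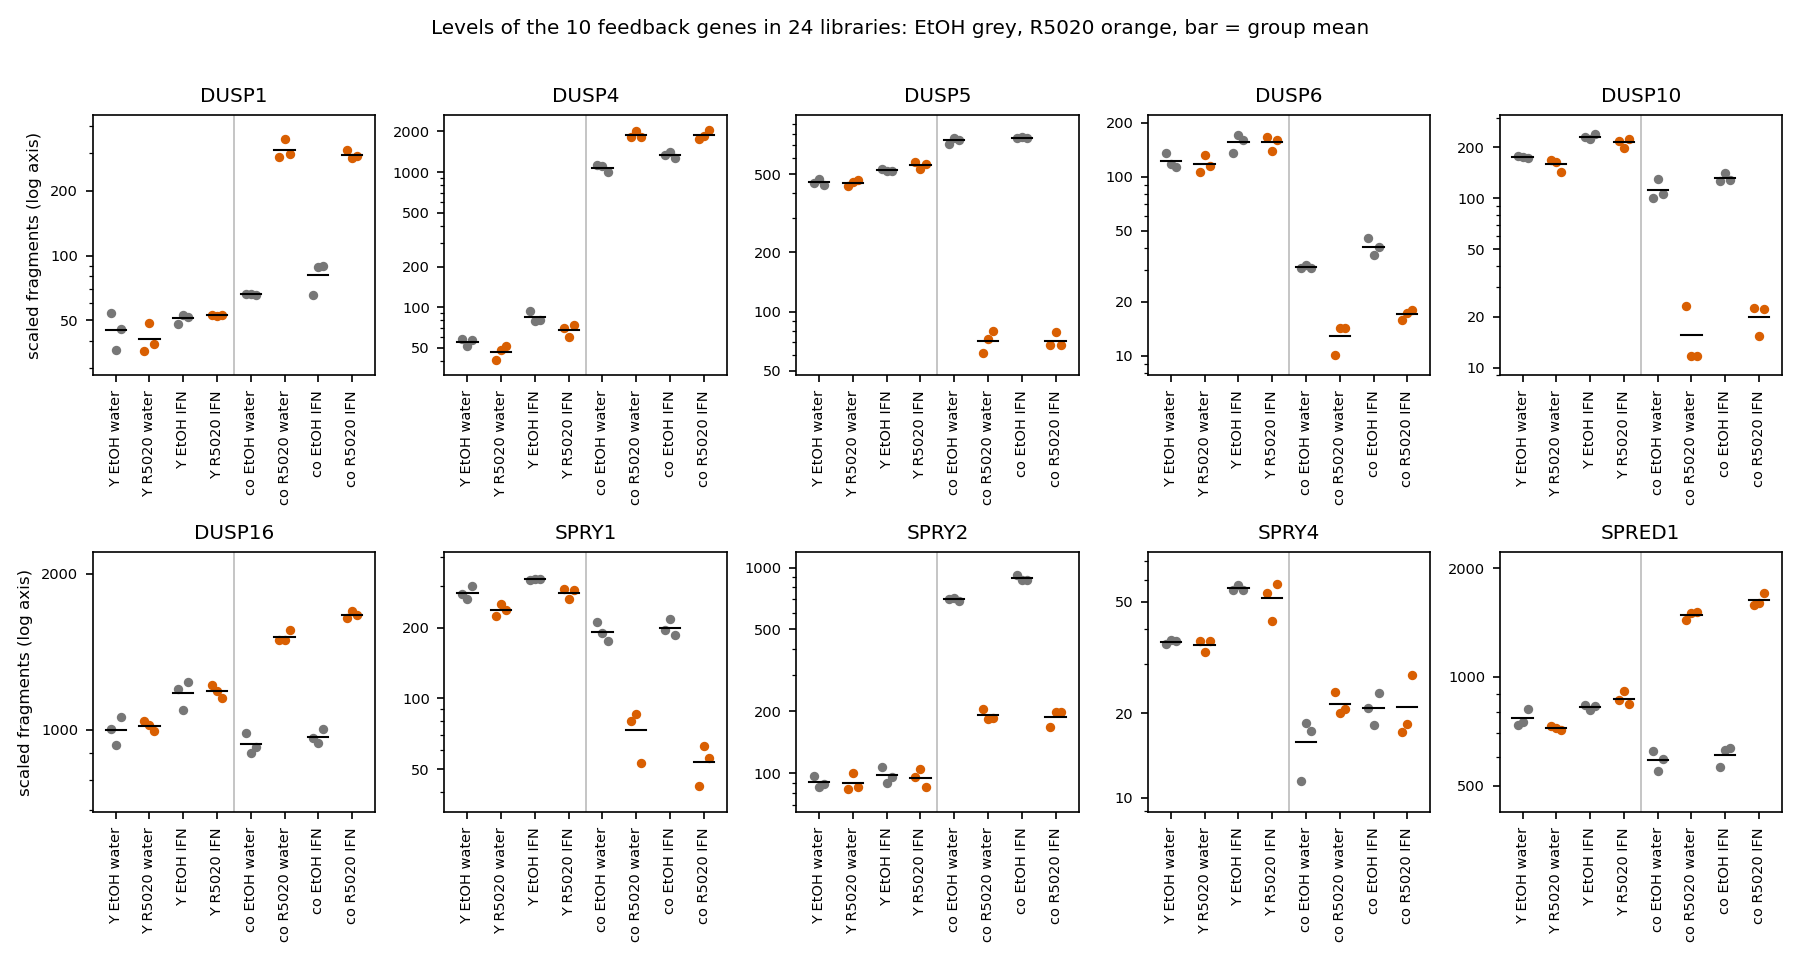
Scaled fragments (log axis) of the 10 feedback genes in each of 24 libraries, by group, with T47D-Y on the left and T47D-co on the right of each panel; grey points are EtOH, orange points R5020, and the bar is the mean of 3 libraries. DUSP5 fell from 714.1 to 769.2 to 61.7 to 79.3 with R5020 in T47D-co and was 437.3 to 578.5 in T47D-Y.

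R5020 split the family in T47D-co. With water, DUSP1, DUSP4, DUSP16 and SPRED1 rose and DUSP5, DUSP6, DUSP10, SPRY1 and SPRY2 fell, from 10.4-fold lower for DUSP5 to 4.70-fold higher for DUSP1. Of the 10 genes 9 passed limma's test at an adjusted p under 0.05, 4 higher and 5 lower, beside 56.5% of the 20162 entries tested. The median absolute log2 fold change was 1.37 over the 10 genes and 0.35 over all entries tested, and 7 of the 10 changed by at least 1 on the log2 scale. The 10 genes were chosen with earlier results of these data known. Setting them beside all entries, here and below, thus describes the libraries and is not independent evidence. In these bulk libraries, fewer cells that hold a transcript and less of it per cell cannot be told apart. The p-values rest on the spread between replicate libraries, pooled for each gene over all 8 groups. A gene thus has the same SE in every comparison of 2 groups, also where its libraries vary more in other groups. The part of the shift in luminal markers, KRT5 and COL1A1 given above in these changes was not tested.

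DUSP1, a phosphatase of the nucleus and a classic immediate-early gene that acts mostly on p38 and JNK and also on ERK, had 66.0, 66.5 and 65.8 scaled fragments in the 3 T47D-co libraries with EtOH and water and 287.2, 348.1 and 296.6 with R5020 and water. Every R5020 library was far above every EtOH library. The log2 fold change was 2.21 ± 0.14 (SE, n = 3 per group, limma adjusted p = 8.43e-13), or 4.70-fold between the means 66.1 ± 0.368 and 310.7 ± 32.8 (SD). DUSP1 lies on chromosome 5 in a locus at 172185228 to 172204777 that it shares with 2 other entries of the table. Positions given for genes here are those of the locus (GRCh37), which for DUSP1, DUSP16 and SPRY4 also holds other entries. DUSP1 takes 85.1 to 93.7% of the fragments at its locus. Before the common scaling, only 3 of its 24 values were whole fragments, so its level depends on how fragments were divided. Its promoter in RefSeq (GRCh38.p14) is shown because DUSP1 rose the most of the 10; the 250 bases before its start, chr5:172771196-172771445 on the minus strand, hold 1 cyclic AMP response element (TGACGTCA, in capitals), 125 to 118 bases before the start.
DUSP1 promoter: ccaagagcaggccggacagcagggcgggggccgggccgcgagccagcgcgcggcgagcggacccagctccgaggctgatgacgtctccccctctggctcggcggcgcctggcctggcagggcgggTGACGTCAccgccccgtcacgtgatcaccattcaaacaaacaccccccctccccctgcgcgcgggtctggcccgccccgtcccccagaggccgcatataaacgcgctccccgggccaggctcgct

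DUSP4, a nuclear phosphatase of ERK and JNK, had 1136, 1105 and 1005 scaled fragments with EtOH and water and 1822, 2008 and 1817 with R5020 and water in T47D-co. The ranges did not overlap, and the log2 fold change was 0.80 ± 0.09 (limma adjusted p = 3.61e-08). DUSP5, a nuclear phosphatase selective for ERK (chromosome 10, 112257595 to 112271302), moved the other way. Its 3 libraries with EtOH and water had 714.1, 762.2 and 746.6 scaled fragments and the 3 with R5020 had 61.7, 72.2 and 79.3. No other gene of the 10 changed as much: the log2 fold change was -3.37 ± 0.07 (limma adjusted p = 1.45e-22), a mean 10.4-fold lower. Of the 3 nuclear phosphatases, DUSP1 and DUSP4 thus rose and DUSP5 fell.

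DUSP6, the cytoplasmic phosphatase selective for ERK and a usual marker of ERK output (chromosome 12, 89741008 to 89747048), fell as well. It had 30.8, 32.1 and 31.1 scaled fragments with EtOH and water and 10.1, 14.3 and 14.3 with R5020 and water in T47D-co, on a level that was already low. The ranges did not overlap, and the log2 fold change was -1.23 ± 0.15 (limma adjusted p = 1.33e-07). At this level the pseudocount of 1 pulls the fold change slightly towards 0. In the RefSeq window of DUSP6 on chromosome 12 (GRCh38.p14, minus strand) lies 1 match to ACANNNTGT, the core of the palindrome to which progesterone and glucocorticoid receptors bind. It is shown in capitals with 10 bases on each side, at chr12:89352585-89352613, and lies 102 to 94 bases before the start.
DUSP6 receptor element core: attcatcaacACAACCTGTtccagccggc

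DUSP10 and DUSP16, which also act mainly on p38 and JNK, parted as well. DUSP10 (chromosome 1, 221874765 to 221915518) had 101.0, 129.9 and 106.0 scaled fragments with EtOH and water and 23.0, 11.8 and 11.7 with R5020 and water in T47D-co. All R5020 libraries were far below all EtOH libraries, with replicate 1 above the other R5020 libraries, and the log2 fold change was -2.84 ± 0.18 (limma adjusted p = 3.93e-13), 7.25-fold between means. DUSP16 (chromosome 12, 12628828 to 12715317), which is known best for acting on JNK, had 983.8, 899.3 and 926.4 scaled fragments with EtOH and water and 1491, 1487 and 1560 with R5020. Its groups were also apart, with a log2 fold change of 0.69 ± 0.05 (limma adjusted p = 3.44e-12). DUSP10 is shown with the match to AAANNGAAA, the core of the interferon-stimulated response element, that lies 11 to 3 bases before its start (chr1:221742082-221742110, GRCh38.p14, minus strand), since IFN was the other treatment.
DUSP10 interferon element core: cagtgtagcaAAAGAGAAAgtaactatgt

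Sprouty proteins bind adaptors such as GRB2 and restrain RAS and RAF activation, and 2 of the 3 Sprouty genes fell. SPRY2 (chromosome 13, 80910110 to 80915086) had 706.4, 711.6 and 690.2 scaled fragments with EtOH and water and 206.2, 183.9 and 184.5 with R5020 and water in T47D-co. The groups were well apart, with a log2 fold change of -1.87 ± 0.09 (limma adjusted p = 3.48e-15), 3.67-fold between means. SPRY1 (chromosome 4, 124317949 to 124324910) had 211.7, 189.1 and 176.3 with EtOH and water and 80.1, 85.7 and 53.3 with R5020, and its log2 fold change was -1.41 ± 0.14 (limma adjusted p = 1.83e-09). Replicate 3 was the lowest SPRY1 library in both groups, and the groups did not overlap. Of the 3 RefSeq windows of SPRY2, on the minus strand of chromosome 13 (GRCh38.p14), 2 hold the receptor element core, at chr13:80340247-80340275 (157 to 149 bases before that start) and at chr13:80339685-80339713 (44 to 36 bases before that start). They are printed so that they can be read against the DUSP6 match above.
SPRY2 at chr13:80340247-80340275: ggagagaaaaACACTTTGTattttccagg
SPRY2 at chr13:80339685-80339713: cagtctgatcACACACTGTtcttaatggg

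SPRY4 (chromosome 5, in a shared locus at 141689991 to 142077617) was the exception. It had 11.5, 18.5 and 17.3 scaled fragments with EtOH and water and 23.9, 20.2 and 20.8 with R5020 and water in T47D-co. The 2 ranges did not overlap, but the log2 fold change of 0.45 ± 0.21 did not pass (limma adjusted p = 0.0655, 95% interval 0.03 to 0.88). With quantile normalization it passed at 0.54 (adjusted p = 0.0290), and without replicate 2 of T47D-co with EtOH and water at 0.58 (adjusted p = 0.0373). SPRY4 takes 50.1 to 74.0% of the fragments at its locus, which it shares with an entry that includes FGF1. Before the common scaling, 22 of its 24 values were whole fragments, so few of them show divided fragments.

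SPRED1, which recruits neurofibromin to RAS and so shuts RAS off (chromosome 15, 38544526 to 38649450), rose. Its T47D-co libraries had 623.6, 548.8 and 594.5 scaled fragments with EtOH and water and 1436, 1503 and 1514 with R5020 and water. The log2 fold change was 1.33 ± 0.05 (limma adjusted p = 3.34e-17), 2.52-fold between means, and the groups were far apart. Among the Sprouty and SPRED genes 1 therefore rose, 2 fell and 1 did not pass.

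With IFN present, R5020 changed the same 9 genes in T47D-co in the same directions, beside 58.2% of entries. The median absolute log2 fold change was 1.64 over the 10 genes and 0.37 over all entries. DUSP1 had 65.4, 88.4 and 89.2 scaled fragments with EtOH and IFN and 311.3, 284.8 and 290.2 with R5020 and IFN, a log2 fold change of 1.87 ± 0.14 (limma adjusted p = 2.37e-11). DUSP5 had 766.6, 769.2 and 761.2 and 67.6, 78.8 and 67.5 (-3.41 ± 0.07, adjusted p = 9.97e-23), so its mean with R5020 was 71.1 ± 8.86 scaled fragments (SD, n = 3) with water and 71.3 ± 6.45 with IFN. DUSP10 had 125.7, 140.8 and 128.1 and 22.5, 15.3 and 22.2, a log2 fold change of -2.67 ± 0.18 (limma adjusted p = 1.28e-12). None of these 3 genes had overlapping groups.

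The Sprouty genes that fell with water fell with IFN too. SPRY2 had 916.6, 866.4 and 871.5 scaled fragments with EtOH and IFN and 168.4, 197.4 and 199.4 with R5020 and IFN (-2.23 ± 0.09, limma adjusted p = 8.57e-17). SPRY1 had 195.2, 218.0 and 186.2 and 42.4, 62.4 and 55.9 (-1.89 ± 0.14, adjusted p = 6.29e-12). Both pairs of groups were apart. SPRED1 had 564.8, 626.6 and 637.9 and 1578, 1602 and 1705 (1.42 ± 0.05, adjusted p = 8.85e-18). DUSP4 had 1336, 1405 and 1274 and 1756, 1865 and 2043 (0.49 ± 0.09, adjusted p = 4.75e-05). DUSP16 had 964.1, 941.7 and 1001 and 1643, 1696 and 1666 (0.78 ± 0.05, adjusted p = 2.64e-13). These 3 genes again rose without overlap. DUSP6 had 45.2, 36.3 and 40.3 and 15.9, 17.4 and 17.9 (-1.20 ± 0.15, adjusted p = 2.08e-07). SPRY4 had 21.0, 18.2 and 23.7 and 17.2, 18.4 and 27.4, with overlapping groups and a log2 fold change of -0.01 ± 0.21 (adjusted p = 0.958).

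**Figure D2:**
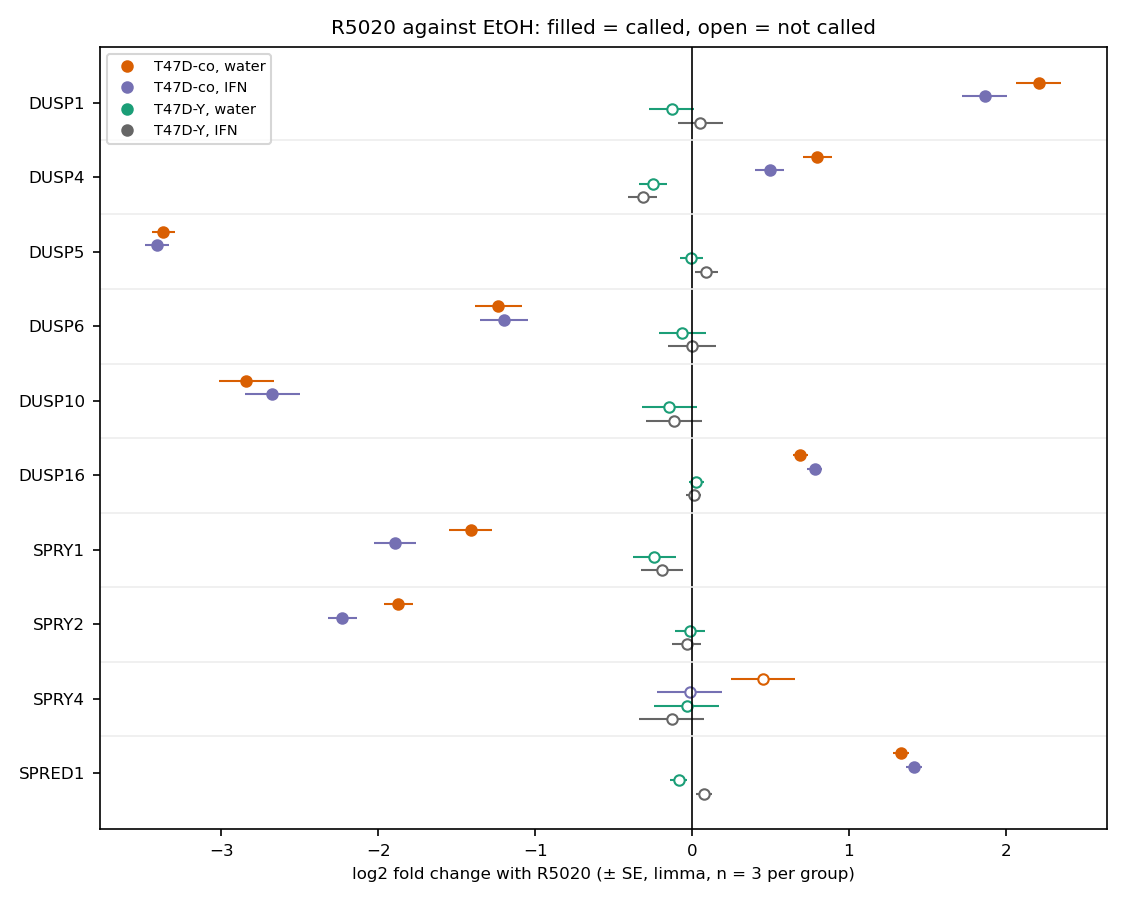
Log2 fold change with R5020 against EtOH (points, with SE bars from limma, 3 libraries per group) for each gene in T47D-co and T47D-Y with water or IFN; filled points passed at an adjusted p under 0.05 and open points did not. The T47D-co points run from -3.41 to 2.21, and the T47D-Y points from -0.31 to 0.09.

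Whether IFN changed the response to R5020 was tested by the interaction of the treatments. In T47D-co none of the 10 genes passed (limma, 1.01% of entries passed), 3 had an unadjusted p under 0.05, and 1 (DUSP4, adjusted p = 0.0381) passed with voom weights. Those 3 were SPRY2, whose fall was larger with IFN (interaction -0.36 ± 0.13 on the log2 scale, adjusted p = 0.180), SPRY1 (-0.48 ± 0.19, adjusted p = 0.220, but -0.69 with adjusted p = 0.0351 without replicate 3 of T47D-co with R5020 and water) and DUSP4, whose rise was smaller (-0.30 ± 0.13, adjusted p = 0.250). For DUSP5 the interaction was -0.04 ± 0.10, with a 95% interval of -0.25 to 0.18, and for DUSP10 it was 0.17 ± 0.25 with an interval of -0.35 to 0.69. In T47D-Y none of the 10 passed (limma, 0% of entries, with 695 entries and 1 of the 10 genes, SPRED1, at an unadjusted p under 0.05, and none of the 10 with voom weights).

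In T47D-Y no gene of the 10 passed with R5020. With water the log2 fold changes ran from -0.25 to 0.03 beside 0.218% of entries passing in limma, and with IFN from -0.31 to 0.09 beside 0.298%. In each case 1 gene, DUSP4, had an unadjusted p under 0.05, and voom weights passed none of the 10. DUSP4 had 57.8, 51.6 and 57.4 scaled fragments with EtOH and water and 40.7, 48.5 and 51.3 with R5020 and water, a log2 fold change of -0.25 ± 0.09 (adjusted p = 0.941). With IFN it had 94.3, 79.3 and 80.3 and 69.7, 60.4 and 73.6 (-0.31 ± 0.09, adjusted p = 0.276). In both IFN states the R5020 libraries of DUSP4 lay just below the EtOH libraries, the opposite direction to T47D-co. DUSP5 had 448.7, 474.3 and 440.4 with EtOH and water and 437.3, 453.4 and 467.7 with R5020, with a 95% interval of -0.16 to 0.15 for the log2 fold change. SPRY2 had 96.7, 86.0 and 88.3 and 83.7, 99.6 and 85.8 (95% interval -0.20 to 0.18). DUSP1 had 53.9, 36.3 and 45.6 and 36.0, 48.7 and 38.6 (95% interval -0.43 to 0.17). Groups of these 3 genes overlapped, and each interval excludes the size of the change seen in T47D-co.

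The difference between the lines in their response to R5020 was tested directly. For 9 of the 10 genes it passed with water, 4 higher and 5 lower in T47D-co, beside 44.6% of entries, and for the same number and split with IFN, beside 46%. The largest were DUSP5 (-3.37 ± 0.10 with water, limma adjusted p = 5.84e-19), DUSP10 (-2.70 ± 0.25, adjusted p = 1.69e-09) and DUSP1 (2.34 ± 0.20, adjusted p = 4.53e-10). SPRY4 was the gene that did not pass, at 0.49 ± 0.29 with water (adjusted p = 0.189) and 0.12 ± 0.29 with IFN (adjusted p = 0.779).

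IFN had small effects on these genes, all below 1 on the log2 scale. In T47D-Y with EtOH, IFN raised DUSP4 and DUSP16, 2 of the 10 beside 4.44% of entries. DUSP4 had 57.8, 51.6 and 57.4 scaled fragments with water and 94.3, 79.3 and 80.3 with IFN, without overlap (0.59 ± 0.09, limma adjusted p = 1.31e-04). DUSP16 had 1005, 935.2 and 1058 with water and 1200, 1093 and 1238 with IFN (0.24 ± 0.05, adjusted p = 0.00358). SPRY4 had 35.4, 36.5 and 36.2 and 55.2, 57.6 and 55.2, also apart, and did not pass (0.62 ± 0.21, adjusted p = 0.0921). DUSP10 had 177.7, 175.3 and 172.3 and 230.1, 224.3 and 239.5, apart as well, and did not pass (0.40 ± 0.18, adjusted p = 0.244). All 10 log2 fold changes were above 0, with a median of 0.22 beside 0.00 over all entries, but with the authors' own scaling those of DUSP4 and SPRY4 alone were above 0. The DUSP4 call ended with voom weights (adjusted p = 0.102) and in a fit of the 2 groups alone (adjusted p = 0.0561), where DUSP16 did not pass either (adjusted p = 0.0544) and DUSP10 did (adjusted p = 0.0206), and with the authors' own scaling DUSP16 turned to -0.24 and DUSP4 came to 0.12 (adjusted p = 0.222). Voom weights added DUSP5 (adjusted p = 0.0250), DUSP10 (adjusted p = 0.0116) and SPRY4 (adjusted p = 0.0198).

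In T47D-Y with R5020, IFN raised 4 of the 10, beside 4.77% of entries: DUSP4, DUSP5, DUSP16 and SPRED1. DUSP4 had 40.7, 48.5 and 51.3 scaled fragments with water and 69.7, 60.4 and 73.6 with IFN (0.53 ± 0.09, limma adjusted p = 5.54e-04). DUSP5 had 437.3, 453.4 and 467.7 and 578.5, 528.3 and 565.5 (0.30 ± 0.07, adjusted p = 0.0168). SPRED1 had 734.4, 723.3 and 713.4 and 861.1, 912.0 and 842.1 (0.27 ± 0.05, adjusted p = 0.00252). The groups of these 3 genes were apart, and DUSP16, with 1041, 1019 and 995.0 and 1222, 1185 and 1152, was too (0.22 ± 0.05, adjusted p = 0.00637). The water group holds 2 of the 4 libraries with a low mitochondrial share, and without the 4 libraries none of the 10 passed, with DUSP4 at 0.39 (adjusted p = 0.144) and SPRED1 at 0.29 (adjusted p = 0.0525). With the authors' own scaling, under which the median log2 fold change over all entries moves by -0.48 for IFN in T47D-Y with R5020, DUSP5, DUSP16 and SPRED1 came out lower and DUSP4 no longer passed. The DUSP4 call also ended with voom weights (adjusted p = 0.140) and in a fit of the 2 groups alone (adjusted p = 0.115). The DUSP5 call ended with scaling by total fragments (adjusted p = 0.0617) and without replicate 1 or 2 of R5020 and water or replicate 1 of R5020 and IFN (adjusted p from 0.0597 to 0.0911). Genes that passed as higher under an alternative alone were DUSP10 (168.1, 164.5 and 143.8 with water and 217.7, 198.8 and 225.3 with IFN, 0.43 ± 0.18, adjusted p = 0.203, but 0.00444 with voom weights and 0.0353 with the groups alone), DUSP6 (0.0253 with voom weights) and SPRY4 (0.0296 with voom weights, 0.0421 with its locus summed).

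In T47D-co IFN passed for no gene of the 10 with EtOH, beside 1% of entries in limma, while 3 had an unadjusted p under 0.05 and 2 passed with voom weights. Those 2 were SPRY2, with 706.4, 711.6 and 690.2 scaled fragments with water and 916.6, 866.4 and 871.5 with IFN (0.33 ± 0.09, adjusted p = 0.115), and DUSP4, with 1136, 1105 and 1005 and 1336, 1405 and 1274 (0.31 ± 0.09, adjusted p = 0.152). Both had groups that were apart. As in T47D-Y with EtOH, all 10 log2 fold changes with IFN were above 0 in T47D-co with EtOH (median 0.25). The same held in T47D-Y with R5020 (median 0.33), while in T47D-co with R5020 6 were above 0. The authors' own scaling shifts the median over all entries by -0.18 in T47D-co with EtOH and by -0.48 in T47D-Y with R5020. With R5020 1 of the 10 passed, beside 11.3% of entries: SPRY1 was lower, with 80.1, 85.7 and 53.3 with water and 42.4, 62.4 and 55.9 with IFN (-0.43 ± 0.14, limma adjusted p = 0.0434). The SPRY1 groups overlapped, and the call was lost under 8 of 17 alternatives, over which the adjusted p ran from 8.61e-04 to 0.281; without replicate 1 of R5020 and IFN the log2 fold change was -0.27. DUSP10 passed without replicate 1 of R5020 and water (0.70, adjusted p = 0.00531), SPRED1 with voom weights (0.14), and DUSP16 with voom weights (0.15), a filter at 50 scaled fragments (0.14) and the replicate block (0.14). For the difference between the lines in the response to IFN with EtOH none of the 10 passed in limma (0.377% of entries passed, 2 of the 10 had an unadjusted p under 0.05, and none passed with voom weights).

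**Figure D3:**
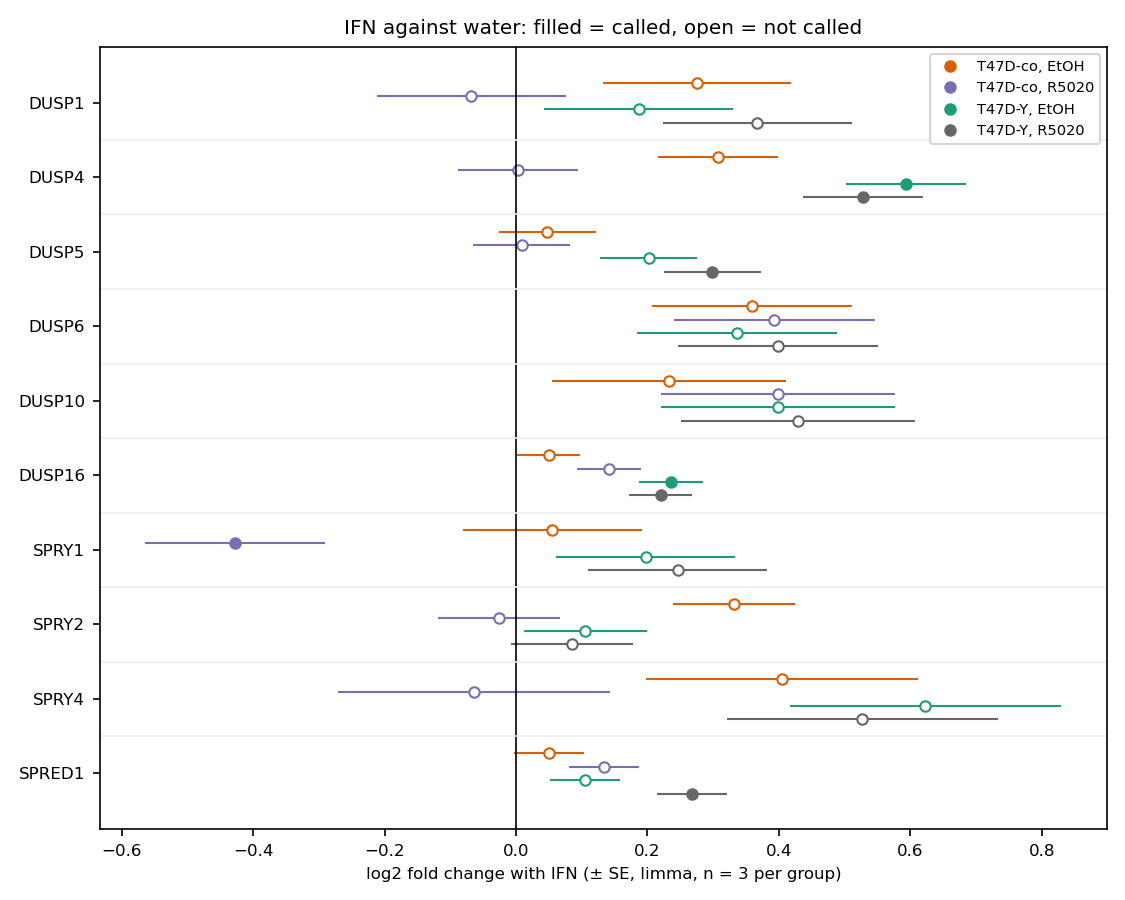
Log2 fold change with IFN against water (points, with SE bars from limma, 3 libraries per group) in each line with EtOH or R5020; filled points passed at an adjusted p under 0.05 and open points did not. All points lie between -0.43 and 0.62, and 7 of them are filled.

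The lines differed in these genes before any progestin. With EtOH and water 9 of the 10 differed, 4 higher and 5 lower in T47D-co, beside 63.1% of entries. DUSP4 (chromosome 8, 29190580 to 29208185) stood out, with 57.8, 51.6 and 57.4 scaled fragments in T47D-Y and 1136, 1105 and 1005 in T47D-co, 19.4-fold between means (4.26 ± 0.09, limma adjusted p = 6.90e-23). SPRY2 came next, with 96.7, 86.0 and 88.3 and 706.4, 711.6 and 690.2, 7.78-fold (2.95 ± 0.09, adjusted p = 2.43e-19). Both genes were far apart between the lines. DUSP6 was lower in T47D-co, with 136.3, 117.2 and 113.8 in T47D-Y and 30.8, 32.1 and 31.1 in T47D-co, 3.91-fold (-1.93 ± 0.15, adjusted p = 3.07e-11). SPRY4 was also lower, with 35.4, 36.5 and 36.2 and 11.5, 18.5 and 17.3 (-1.17 ± 0.21, adjusted p = 2.34e-05). The other genes differed by less than 1 on the log2 scale: DUSP5 was higher (0.70) and so was DUSP1 (0.55), while DUSP10 (-0.64), SPRY1 (-0.55) and SPRED1 (-0.38) were lower. DUSP16 did not pass (-0.09 ± 0.05, adjusted p = 0.0972), but it did with scaling by total fragments (-0.13), with the authors' own scaling (-0.33), and without replicate 2 of T47D-Y (-0.14) or replicate 1 of T47D-co (-0.13) with EtOH and water.

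With EtOH and IFN all 10 differed between the lines, 4 higher and 6 lower in T47D-co, beside 62.6% of entries, with DUSP16 passing too (-0.28 ± 0.05, adjusted p = 1.69e-05). With R5020 and water all 10 differed as well, 5 higher and 5 lower beside 68.5%, and with R5020 and IFN the split was again 5 and 5 beside 68.3%. Among differences that passed both with EtOH and water and with R5020 and water, the sign turned for DUSP5 and SPRED1. DUSP5 was higher in T47D-co than in T47D-Y with EtOH and water (0.70) and lower with R5020 and water (-2.66 ± 0.07, limma adjusted p = 8.66e-21). SPRED1 went from -0.38 to 1.03 ± 0.05 (adjusted p = 3.68e-15). DUSP16 turned from -0.09, which did not pass, to 0.57 ± 0.05 (limma adjusted p = 8.62e-11). With IFN DUSP5 and SPRED1 turned in the same way, and so did DUSP16, which passed on both sides, from -0.28 to 0.49. Where the lines were close, R5020 set them apart: DUSP10 differed by -0.64 with EtOH and water and by -3.34 ± 0.18 with R5020 and water. DUSP4 rose in the line that had more of it already and reached 40.2-fold between the lines, while SPRY2 fell in the line that had more of it and came down to 2.14-fold. The SPRY4 difference with R5020 and water (-0.68 ± 0.21, adjusted p = 0.00536) did not pass with quantile normalization (-0.38) or without the 4 libraries of low mitochondrial share (-0.72).

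**Figure D4:**
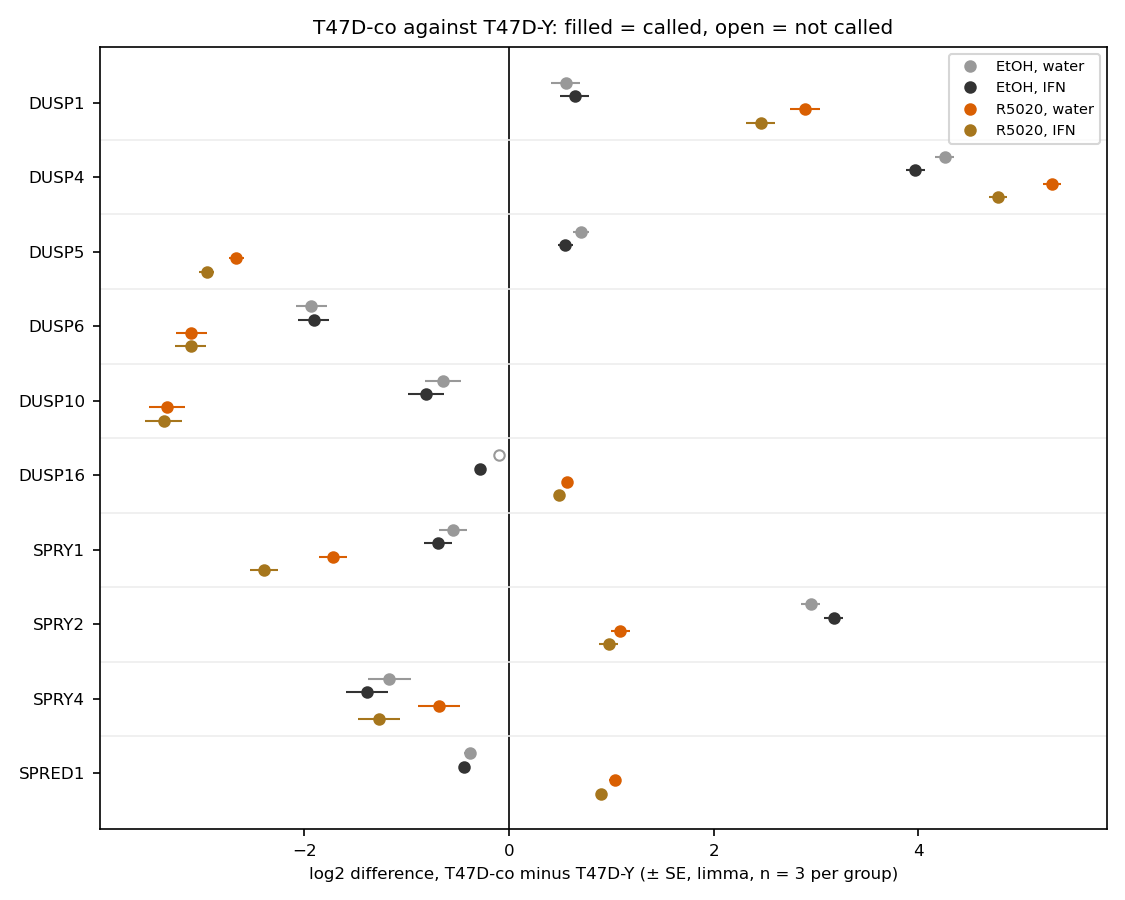
Log2 difference between the lines, T47D-co minus T47D-Y (points, with SE bars from limma, 3 libraries per group), under each of the 4 treatments; filled points passed at an adjusted p under 0.05 and the open point did not. DUSP5, DUSP16 and SPRED1 lie on opposite sides of 0 with EtOH and with R5020, and DUSP4 is between 3.97 and 5.30 throughout. The open point is DUSP16 with EtOH and water.

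The order of the groups differed from gene to gene. DUSP5 was lowest in the 2 R5020 groups of T47D-co, which overlapped each other, then in T47D-Y with water, then in T47D-Y with IFN, and highest in T47D-co with EtOH. In T47D-Y the R5020 and EtOH groups of DUSP5 overlapped in each IFN state. SPRY2 was lowest in the 4 T47D-Y groups, which all overlapped, at 83.7 to 107.0 scaled fragments, higher in the R5020 groups of T47D-co at 168.4 to 206.2, and highest with EtOH at 690.2 to 916.6. DUSP1 was 36.0 to 53.9 over T47D-Y, 65.4 to 89.2 in T47D-co with EtOH and 284.8 to 348.1 with R5020, with no overlap between these levels. For SPRED1 the lowest groups were T47D-co with EtOH (548.8 to 637.9), the T47D-Y groups lay above them (713.4 to 912.0), and T47D-co with R5020 was highest (1436 to 1705).

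Some genes ran together over the 8 group means of log2(scaled fragments + 1), which share the 2 lines and the scaling, and this is given as a description. The closest pairs were DUSP16 and SPRED1 (Pearson's r = 0.98, n = 8 groups) and DUSP10 and SPRY1 (r = 0.98), and the most opposed were DUSP1 and DUSP10 (r = -0.97). DUSP5 and SPRED1 were opposed as well (r = -0.96). Outside the 10 genes, up to 2 profiles most like each were taken, with r from 0.991 to 0.9995. They were picked for the highest r over the 8 group means, so a high r follows from the choice. Over the 24 libraries r ran from 0.871 (SPRY1 and WDR11) to 0.996 (DUSP5 and TRAM2). For the phosphatases the profiles were WDR5 and PLAGL2 for DUSP1, GRINA and SDHA for DUSP4, TRAM2 and PDE4DIP for DUSP5, PSTK and SMAD6 for DUSP6, TMEM135 and ADCY6 for DUSP10, and GMNN and PER2 for DUSP16. For the others they were IRF2BP2 and WDR11 for SPRY1, CRNKL1 and MOB3A for SPRY2, DR1 and ZSCAN29 for SPRY4, and TSPAN5 and EHD4 for SPRED1.

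The rest of the pathway moved in T47D-co with R5020 and water too. Of 122 listed pathway genes 103 were tested, and 41 rose and 37 fell, 75.7% beside the 56.5% of all entries. Among the other MAP kinase phosphatases 3 of 5 rose and 1 fell; DUSP7, a cytoplasmic relative of DUSP6, rose by 0.79 ± 0.11 on the log2 scale (limma adjusted p = 1.60e-06), and DUSP8, a phosphatase of JNK and p38, changed by -0.63 ± 0.10 (adjusted p = 4.50e-06). DUSP7 rose from a mean of 145.0 to 250.5 scaled fragments while DUSP6 fell. Of the 2 other Sprouty and SPRED genes tested of 3, the entry that merges SPRED2, a relative of SPRED1, with another transcript rose by 0.26 ± 0.04 (adjusted p = 1.43e-05) and the other, SPRED3, fell, a gene below the level set for naming that is named because the count is so small. The atypical dual-specificity phosphatases split into 3 higher and 4 lower of 12 tested, led by an entry that merges DUSP18 with another transcript (-0.81 ± 0.15) and by DUSP14 (0.64 ± 0.05).

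Of the other feedback inhibitors of receptor and ERK signalling 8 of 13 rose and 2 fell, with a median log2 fold change of 0.84 beside -0.04 over all entries. With R5020 and IFN against EtOH and IFN, 6 rose and 3 fell, and the median was smaller, at 0.41. ERRFI1, which binds and inhibits the EGF receptor, rose from 318.6 to 1119 scaled fragments (1.81 ± 0.05, limma adjusted p = 2.97e-20). LRIG1, which promotes the breakdown of receptors of that family, rose by 1.14 ± 0.03, TNFAIP3, a brake on NF-kappa B, by 1.35 ± 0.11, and the pseudokinase TRIB3 by 0.84 ± 0.04. These lists were drawn up with earlier results of these data known, so their counts describe the libraries and are not independent evidence.

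The kinases and switches were mixed. Of 13 MAP kinases tested 6 rose and 7 fell, and the largest change was in the entry that merges MAPK10, the JNK of neurons, with small RNA genes, from 943.8 to 211.9 scaled fragments (-2.15 ± 0.07, limma adjusted p = 5.17e-19). The entry that merges MAPK6, an atypical MAP kinase, with another transcript rose by 0.82 ± 0.04, at a locus with 10 entries. Of 11 MAP kinase kinases and RAF kinases 2 rose and 7 fell, among them the scaffold KSR2 (-1.21 ± 0.06) and MAP2K6, a kinase of p38 (-0.91 ± 0.08), while MAP2K1, which encodes MEK1, rose by 0.39 ± 0.04. Of 22 genes of RAS and its switches 7 rose and 9 fell. MRAS, a RAS relative that helps activate RAF, rose from 201.3 to 2850 scaled fragments (3.82 ± 0.07, limma adjusted p = 2.03e-24), and the adaptor GAB2 rose by 2.01 ± 0.04. RASAL1 (1.91 ± 0.18) and the entry that merges RASA2 with its intronic transcript (1.08 ± 0.05), both for proteins that switch RAS off, rose as well.

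Among 10 receptor kinases tested 4 rose and 3 fell: RET rose from 29.1 to 255.6 scaled fragments (3.09 ± 0.11, limma adjusted p = 7.88e-18), and FGFR2 changed by -0.92 ± 0.04 and the entry that merges EPHA4 with another transcript by -1.25 ± 0.04. Of 15 transcripts known to respond to ERK 7 rose and 3 fell. The growth regulator MYC rose by 2.17 ± 0.17, the cell cycle gene CCND1 by 1.93 ± 0.04 and the EGF receptor ligand EREG by 1.90 ± 0.24. The ERK-dependent factor ETV4 rose by 0.86 ± 0.31 (limma adjusted p = 0.0204), from a mean of 15.6 to 28.5 scaled fragments. ETV4 was thus low in T47D-co and reached the level set for naming only in T47D-Y. In T47D-co with IFN its libraries overlapped, at 11.0 to 31.6 with EtOH and 18.8 to 29.8 with R5020. Those of MYC, CCND1 and EREG stayed apart there. The ERK-responsive transcripts therefore moved both ways, as the 10 feedback genes did.

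**Figure D5:**
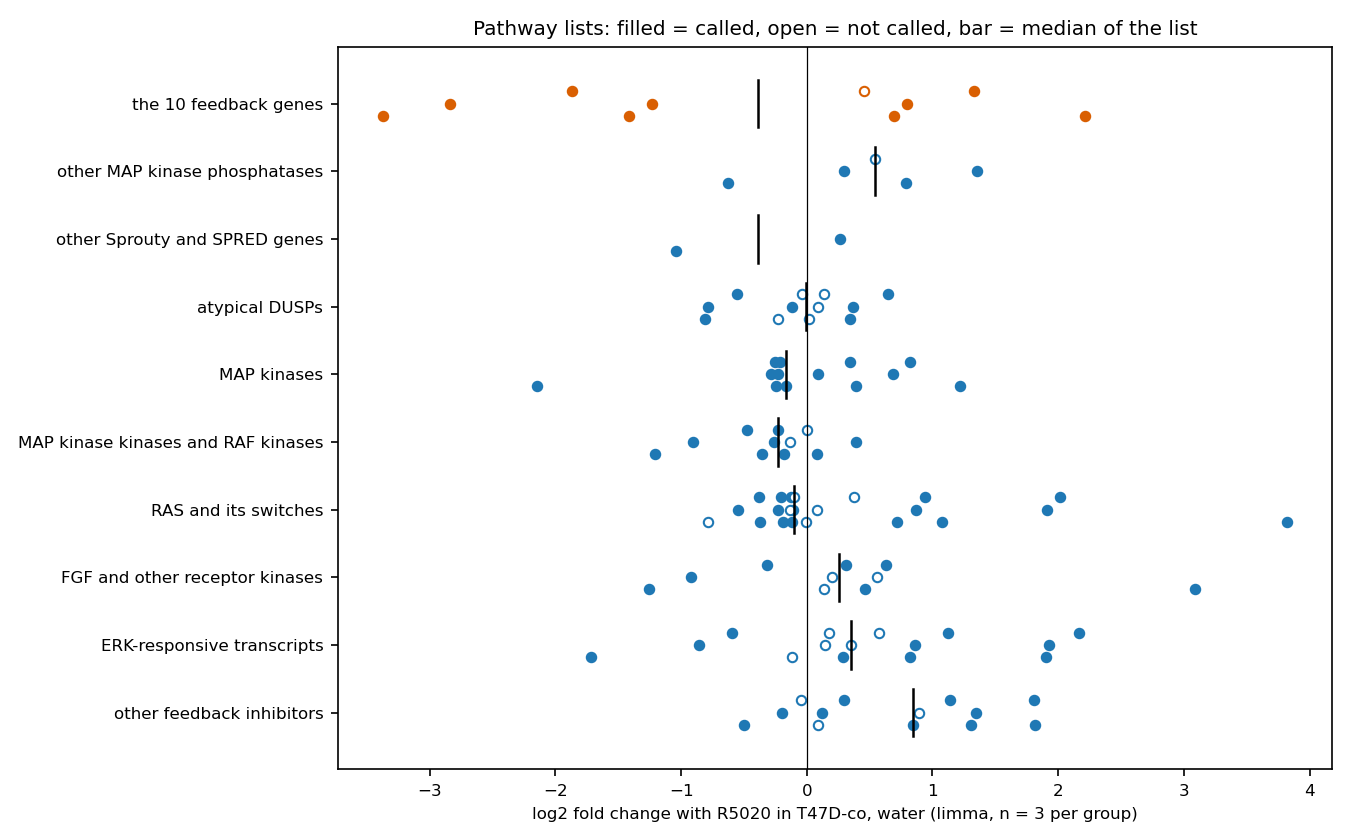
Log2 fold change with R5020 in T47D-co with water (limma, 3 libraries per group) for the 10 feedback genes (orange) and 9 lists of pathway genes (blue); filled points passed at an adjusted p under 0.05, open points did not, and the bar is the median of the list. The bar of the other feedback inhibitors is at 0.84 and that of the 10 genes at -0.39.

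RefSeq windows of 300 bases, 250 before to 50 after a start, were used for 8 of the 10 genes, 12 windows in all. For these genes any window on chromosome 8, where DUSP4 lies, was left out, so the DUSP4 promoter was not examined. No window was matched for DUSP5. The receptor element core ACANNNTGT was in 3 of the 12 windows, those of DUSP6 and SPRY2 printed above, beside 5.37% of all 35116 windows. Counted by gene, it was in 2 of the 8. SPRY2 gave 3 of the 12 windows, and a gene with more windows has more places for a match. The genes that hold it, DUSP6 and SPRY2, both fell with R5020 in T47D-co. So did DUSP10 and SPRY1, whose windows do not hold it, and DUSP5, which had no window. A part of the core in these falls was not tested. The interferon element core AAANNGAAA was in 3 windows, of DUSP10, DUSP6 and SPRY2, beside 10.5% of all windows, and none of these 3 genes passed in limma in the 4 comparisons with IFN, while each passed in at least 1 of them under an alternative given above. The cyclic AMP response element TGACGTCA was in the DUSP1 window alone of the 12 (1.85% of all windows), and the ETS core CCGGAAG was in 1 window of SPRY1 (10.3%). None of the 12 windows held the AP-1 site TGANTCA (7.71% of all) or the CArG box of serum response factor (1.29%). Both strands were searched, no 2 of the matches overlap, and a match or its absence says only whether these letters stand in these windows.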

How the data were processed

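Total RNA was sequenced in 24 libraries, 3 per group. Per the submitters' processing notes, TopHat2 2.0.12 and Cufflinks 2.2.1 and the build GRCh37 (hg19) were used. The deposited values are a signal whose unit the file header does not state. They were read as estimated fragments that each library's size factor had scaled: where no other gene shares the locus, 97.9 to 99.1% of values came out whole in steps of 1 fragment (tolerance 0.05 of a step). Over all entries only 63.0 to 66.1% did, because shared loci have divided fragments, so no test for counts was used. Of the 10 genes, DUSP1, DUSP16 and SPRY4 each share a locus with other entries. In that order, 3, 16 and 22 of their 24 values came out whole. The values themselves show factors set within 4 blocks of 6 libraries (line by IFN state). These factors were undone, and the 24 libraries were put on 1 scale by median-of-ratios factors from 14201 genes whose mean reached 50 fragments. Symbols that occur more than once (10 symbols, 25 entries) were not used.

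In R 4.3.3, limma 3.58.1 (variance trend, 16 residual and 8.05 prior degrees of freedom, tested on simulated data) was fitted to log2(scaled fragments + 1) with 8 group means, over the 20162 entries that reached 10 scaled fragments in 3 or more libraries. There were 17 comparisons, two-sided, adjusted by Benjamini-Hochberg over all entries within each, with a threshold of 0.05. Fold changes are on the log2(scaled fragments + 1) scale. The 10 genes and all lists were chosen with earlier results of these data known. Of each pathway list the text names up to 4 called genes with the largest changes with R5020 in T47D-co with water that reached 50 scaled fragments in a group, and other genes named are given with the reason. Promoters were RefSeq windows on GRCh38.p14, matched by symbol with Python 3.11.15, and no coordinates were converted between builds. Alternatives were other scalings, pseudocounts, filters, voom weights, a fit of the groups compared alone, a replicate block, locus sums, and leaving out libraries.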

Additional observations from a re-analysis of the deposited data

Results flagged for a closer look

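For 9 of the 10 genes the response to R5020 differed between T47D-co and T47D-Y by a test of the difference itself, in both IFN states (limma, adjusted p from 2.30e-19 to 6.72e-05). As log2 differences, T47D-co minus T47D-Y, those above 0 with water were 2.34 for DUSP1, 1.05 for DUSP4, 0.66 for DUSP16 and 1.42 for SPRED1. Those below 0 with water were -3.37 for DUSP5, -1.17 for DUSP6, -2.70 for DUSP10, -1.17 for SPRY1 and -1.86 for SPRY2. With IFN the values above 0 were 1.82 for DUSP1, 0.81 for DUSP4, 0.77 for DUSP16 and 1.34 for SPRED1. With IFN those below 0 were -3.50 for DUSP5, -1.20 for DUSP6, -2.56 for DUSP10, -1.70 for SPRY1 and -2.20 for SPRY2.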

How the results depend on the processing

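Of 170 results for single genes, 82 passed as reported and 74 of these kept direction and call under every alternative, while 67 of the 88 that did not pass passed under none. All 9 genes called with R5020 in T47D-co kept their call in both IFN states. The counts of called genes with IFN were less stable, and the cause was not tested. For IFN in T47D-co with EtOH (0 called) the authors' own scaling gave 1, voom weights 2 and a fit of the groups alone 2. For IFN in T47D-co with R5020 (1 called), quantile normalization, no filter, the groups alone and leaving out the 4 libraries of low mitochondrial share gave 0, and a filter at 50 scaled fragments, voom weights and the replicate block gave 2; leaving out 1 library gave 0 to 1, with 0 without replicate 2 of R5020 and water or replicate 1 of R5020 and IFN. The replicate block changed no other count by more than 1.5 times. Same-numbered libraries had correlations of deviations from -0.0557 to 0.0563, so no shared deviation was visible. These correlations cannot tell whether same-numbered libraries were prepared together. For IFN in T47D-Y with EtOH (2 called) the authors' scaling gave 4, voom weights 4 and the groups alone 1. For IFN in T47D-Y with R5020 (4 called) leaving out the 4 libraries gave 0; 1 library is then left in its water group and is assumed to vary like the others. For the interaction of R5020 and IFN in T47D-co (0 called) voom weights gave 1 and leaving out 1 library 0 to 1, and for line by IFN (0 called) the authors' scaling gave 2.

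The authors' scaling sets the blocks apart by construction and shifts the median log2 change with IFN by -0.47 in T47D-Y with EtOH and -0.18 in T47D-co with EtOH. Among values that pass on either scaling, these turned sign on it: in T47D-Y with EtOH DUSP5 -0.27, DUSP16 -0.24, SPRY2 -0.37 and SPRED1 -0.37; in T47D-Y with R5020 DUSP5 -0.18, DUSP16 -0.26, SPRY2 -0.39 and SPRED1 -0.22; in T47D-co with EtOH DUSP16 -0.13; and for line by IFN SPRED1 0.24. Atypical phosphatases called with R5020 in T47D-co with water were 7, and 4 to 7 without 1 library (4 without T47D-co EtOH and water replicate 3). Depth limits DUSP6 and SPRY4, which have under 40 scaled fragments in T47D-co with water. It also limits DUSP10 in T47D-co with R5020, where the means were 15.5 scaled fragments with water and 20.0 with IFN.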
